A study of Mus musculus with 11 samples.

Results

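The genes described here build motile cilia or mark the multiciliated cells that carry them. A list of 47 such genes was followed in newborn mouse ovaries on Illumina MouseWG-6 bead arrays, which measured 19057 named genes. For each gene every probe annotated with its symbol was taken, and the brightest probe stood for the gene. Of the 47 genes, 44 had a named probe, and 35 of these were above background by that probe in wild type on at least 3 of the 4 arrays. The 3 genes with no named probe were Lrrc23, Tekt2 and Tekt4. Dnai1 and Dnai2 stand on the array under their older symbols Dnaic1 and Dnaic2.

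Total RNA came from whole newborn ovaries of the mixed strain C57BL/6/129S6/SvEv. The groups were Sohlh1 KO (4 arrays), Sohlh2 KO (3 arrays, numbered 2 to 4 in their titles) and wild type (4 arrays). Both genes code for germ cell transcription factors of the basic helix-loop-helix class, and the series asks how the newborn ovary's transcripts change when either gene is lost. The knockout alleles, and whether an array stands for 1 animal or for pooled ovaries, are not given in the sources used here, so p-values measure only the spread between these arrays.

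Motile cilia are beating projections with a core of doublet microtubules, the axoneme. Outer and inner dynein arms drive the beat, and the radial spokes, the central apparatus and the nexin-dynein regulatory complex shape it. In a multiciliated cell the coregulator Mcidas starts the program, Ccno and other factors multiply the centrioles that become basal bodies, and Foxj1 and RFX factors switch on the axoneme genes. In the female reproductive tract such cells are best known from the lining of the oviduct. Many axoneme genes are also used in sperm tails, and Ccno has a known role in mouse oocytes as well.

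Levels are background-corrected, quantile-normalized log2 intensities, in which 1 unit is a factor of 2. The background of an array was set by its 1287 probes for olfactory receptors, at their 95th percentile, a level of 5.04 to 5.14 on Sohlh1 KO arrays, 5.08 to 5.24 on Sohlh2 KO arrays and 4.92 to 5.06 on wild-type arrays. The share of all probes above background ranged between 47.0% and 49.3% in Sohlh1 KO, between 45.3% and 48.2% in Sohlh2 KO, and between 48.7% and 52.6% in wild type. Sohlh1 averaged 8.69 ± 0.29 in Sohlh1 KO and 8.70 ± 0.11 in Sohlh2 KO, against 11.26 ± 0.15 in wild type (SD), and was lower in both knockouts (adjusted p = 2.72e-08 and 7.41e-08). The Sohlh1 probe stayed above background on every knockout array. Between the knockouts its difference was -0.01 (log2, limma, adjusted p = 0.997), so it does not tell the 2 knockout labels apart. Sohlh2 averaged 5.71 ± 0.44 in Sohlh1 KO, where it was higher than in wild type (adjusted p = 0.0115). It was not above background on any Sohlh2 KO array, but it was above background on only 3 of 4 wild-type arrays (4.70 ± 0.06 in Sohlh2 KO, against 5.01 ± 0.14 in wild type; adjusted p = 0.284), so this probe is a weak check of the label. The 4 wild-type arrays and Sohlh1 KO arrays 1 and 2 lie on one chip, and Sohlh1 KO arrays 3 and 4 and the 3 Sohlh2 KO arrays on the other. The titles of wild-type arrays 2 and 3 carry a letter b that no label explains, so results without these arrays are also given.

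Motile cilia genes were lower in both knockouts, most of them severalfold and some down to background. In Sohlh1 KO, 33 of the 35 genes fell and 0 rose at an adjusted p under 0.05 (limma, Benjamini-Hochberg over 13355 tested genes), where 16.4% of all tested genes were lower and 16.3% higher. In Sohlh2 KO, 31 of the 35 fell and 0 rose, where 13% of all tested genes were lower and 12.5% higher. The median difference over the 35 genes was -2.44 in Sohlh1 KO and -2.64 in Sohlh2 KO (log2), against 0.03 and 0.04 over all tested genes. Where a knockout's probe was above background on 0 of its arrays, as for 7 genes in Sohlh1 KO and 12 in Sohlh2 KO, the fitted value is not a measured size. With those genes at their smallest measurable change the medians were -2.44 and -2.17. Both comparisons share the 4 wild-type arrays, so they are not independent of each other. In whole ovaries, fewer ciliated cells and less RNA per cell cannot be told apart.

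The 35 genes had to be above background in wild type, which favours lower values in the knockouts, so the count was also taken over all 44 genes with a probe. With every gene of the array in the fit, 34 of 44 were lower and 0 higher in Sohlh1 KO, where 11.4% of all 19057 genes were lower and 11.1% higher. In Sohlh2 KO, 30 of 44 were lower and 0 higher, where 8.91% of all genes were lower and 8.51% higher. Their median differences were -1.69 and -1.55. On single arrays, 32 of the 35 genes were lower on every Sohlh1 KO array than on any wild-type array, where this held for 16.1% of all tested genes. The same number, 32 of 35, lay below wild type on every Sohlh2 KO array, where the share of all tested genes was 19.4%. These 35 genes are again those filtered in wild type. Over all 44 genes with a probe, 33 lay wholly below and 1 wholly above wild type in Sohlh1 KO, against 2238 and 2182 of all 19057 genes. In Sohlh2 KO the numbers were 34 below and 0 above, against 2776 and 3512 of all genes.

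Chip and genotype overlap in this design. Within the chip that holds both groups, the 2 Sohlh1 KO arrays against the 4 wild-type arrays gave 32 of 35 genes lower and a median of -2.40. In that fit 2988 of the 13355 tested genes were called in either direction. No chip holds both Sohlh2 KO and wild type. With the chip as a block, the estimate for Sohlh2 KO passes through the Sohlh1 KO arrays on both chips, and 27 of 35 genes were lower with a median of -2.70, against 30 of 35 and -2.40 for Sohlh1 KO. With this block 1712 of the 13355 tested genes were called in either direction in Sohlh2 KO, and 3587 in Sohlh1 KO.

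**Figure D1:**
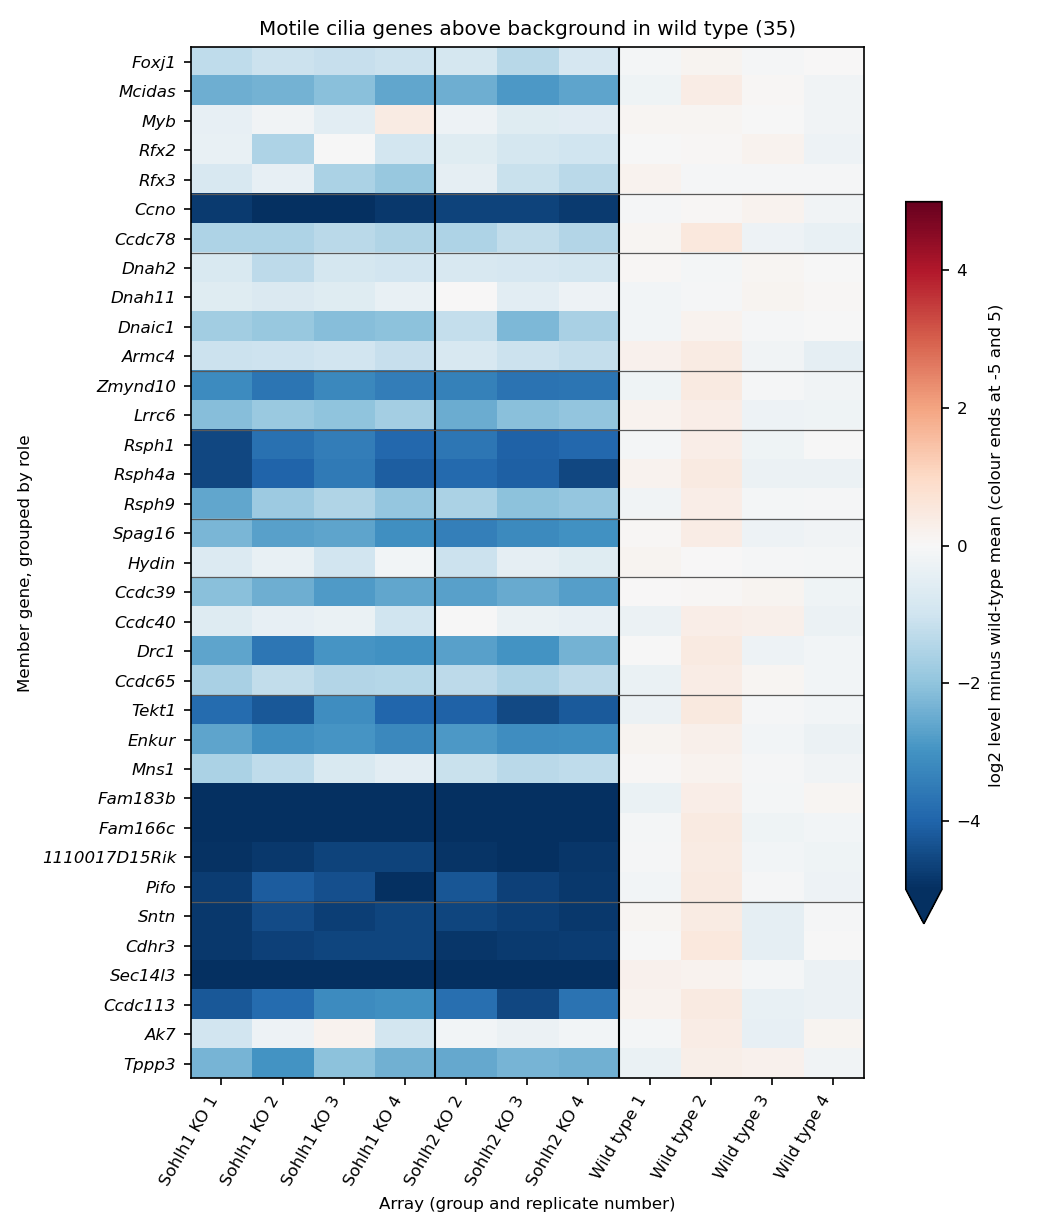
Level of each of the 35 genes on each of the 11 arrays, as the log2 level minus the gene's wild-type mean, with genes in rows grouped by role and arrays in columns by group. The 7 knockout columns are blue for most genes, while Myb, Ak7, Ccdc40, Dnah11, Hydin and Rfx2 are pale or near white. Wild-type array 2 is the reddest of the wild-type columns.

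Because the genes moved together, their promoter windows were read (build GRCm38.p6, 250 bases before to 50 bases after a start site of the gene). That site can differ from the start of the RefSeq gene. Of the 44 genes with a probe, 36 had an entry, with 39 windows. The windows printed here are those of Fam183b and Fam166c, which had the largest bounds of all members, and of Ccno and Mcidas, which act at the start of the program. They were chosen after the values were seen. The windows of Fam183b and Mcidas lie wholly inside their RefSeq genes (chr11:58783892-58802221 and chr13:112993581-113000394). The Fam183b window is chr11:58801911-58802210 (minus strand), the Fam166c window chr5:30465827-30466126 (plus strand), the Ccno window chr13:112987552-112987851 (plus strand) and the Mcidas window chr13:112993618-112993917 (plus strand). Each is given 5′ to 3′ on the gene's strand, and capitals mark 3 motifs found on either strand: GTTGCC, the half-site of RFX factors (GGCAAC on the other strand), CANNTG, the E-box that basic helix-loop-helix factors such as Sohlh1 and Sohlh2 bind, and GTAAACA, a forkhead motif (TGTTTAC on the other strand).
Fam183b: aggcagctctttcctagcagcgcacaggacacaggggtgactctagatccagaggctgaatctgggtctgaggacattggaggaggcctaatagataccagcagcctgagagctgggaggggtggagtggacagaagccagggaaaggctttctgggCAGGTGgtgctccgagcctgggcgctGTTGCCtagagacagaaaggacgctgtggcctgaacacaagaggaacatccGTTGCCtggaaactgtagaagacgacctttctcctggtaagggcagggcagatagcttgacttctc
Fam166c: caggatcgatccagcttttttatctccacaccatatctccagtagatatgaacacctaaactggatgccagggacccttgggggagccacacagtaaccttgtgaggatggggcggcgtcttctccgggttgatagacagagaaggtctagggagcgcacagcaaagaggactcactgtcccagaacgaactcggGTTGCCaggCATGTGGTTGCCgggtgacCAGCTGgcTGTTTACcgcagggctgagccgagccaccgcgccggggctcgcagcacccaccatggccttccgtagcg
Ccno: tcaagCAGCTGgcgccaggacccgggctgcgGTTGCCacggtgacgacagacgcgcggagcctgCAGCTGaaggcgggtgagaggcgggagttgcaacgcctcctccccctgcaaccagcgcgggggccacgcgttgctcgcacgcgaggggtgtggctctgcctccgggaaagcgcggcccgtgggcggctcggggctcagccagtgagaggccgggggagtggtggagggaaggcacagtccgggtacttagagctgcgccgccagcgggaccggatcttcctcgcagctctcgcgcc
Mcidas: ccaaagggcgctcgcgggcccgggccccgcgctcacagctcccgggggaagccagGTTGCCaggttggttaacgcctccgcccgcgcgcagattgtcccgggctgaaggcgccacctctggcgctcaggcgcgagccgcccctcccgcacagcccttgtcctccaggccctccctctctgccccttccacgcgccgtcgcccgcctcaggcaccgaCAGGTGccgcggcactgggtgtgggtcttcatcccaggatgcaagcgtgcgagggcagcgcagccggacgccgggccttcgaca

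Each of these 4 windows holds at least 1 GTTGCC, and Fam183b and Fam166c hold 2. Over the 35 genes above background, 29 had an entry, with 32 windows, and 19 of these windows (59.4%) held GTTGCC, against 12.5% of all 32851 windows in the table. The longer palindromic RFX pattern, which can contain the half-site, was found in 3 of 32 windows (9.38%, in Ccno, Zmynd10 and Pifo), against 1.29% of all windows. GTAAACA was found in 4 of 32 (12.5%), against 3.65%. The E-box was found in 24 of 32 (75%), against 72.3% of all windows. Over the 39 windows of all members with a probe, GTTGCC was found in 56.4% and the palindrome in 7.69%. In the same 39 windows GTAAACA was found in 10.3% and the E-box in 69.2%. These matches describe the letters of the windows and no binding was measured. Ccno and Mcidas are next to each other on chromosome 13, with 2802 bases between them. Cdc20b, the gene after Mcidas and another gene of centriole multiplication, had a probe that was above background on 0 of the 11 arrays.

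Of the 5 regulators, 4 fell in each knockout, and Mcidas fell to background on nearly all knockout arrays. Mcidas read 4.82, 4.92, 5.20 and 4.66 on the Sohlh1 KO arrays and 4.84, 4.40 and 4.65 on the Sohlh2 KO arrays, against 7.03, 7.63, 7.31 and 7.10 on the wild-type arrays. Every wild-type array was far above background, and of the 7 knockout arrays only Sohlh1 KO array 3 passed it, narrowly. Mcidas fell by 2.37 ± 0.16 in Sohlh1 KO (log2, SE; adjusted p = 1.61e-07) and was at least 4.36-fold lower in Sohlh2 KO (adjusted p = 1.52e-07).

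Foxj1, the forkhead factor that switches on motile cilia genes, fell but did not reach background. Foxj1 read 5.31, 5.48, 5.43 and 5.51 on the Sohlh1 KO arrays and 5.67, 5.18 and 5.74 on the Sohlh2 KO arrays, against 6.47, 6.71, 6.51 and 6.59 on the wild-type arrays. The groups did not overlap. Against wild type, Foxj1 changed by -1.14 ± 0.14 in Sohlh1 KO and -1.04 ± 0.15 in Sohlh2 KO (log2, SE; adjusted p = 2.79e-05 and 1.60e-04), so Foxj1 was 2.2-fold and 2.05-fold lower.

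Rfx2 and Rfx3 bind the X-box motif of cilia genes, and Rfx3 also serves primary cilia. Rfx3 read 5.53, 5.91, 4.76 and 4.46 on the Sohlh1 KO arrays and 5.91, 5.23 and 5.01 on the Sohlh2 KO arrays, against 6.51, 6.29, 6.30 and 6.26 on the wild-type arrays. All knockout arrays lay below all wild-type arrays. Rfx3 was above background on all 4 wild-type arrays, but on only 2 Sohlh1 KO and 2 Sohlh2 KO arrays. Sohlh1 KO minus wild type was -1.17 ± 0.28 for Rfx3 and Sohlh2 KO minus wild type -0.96 ± 0.31 (log2, SE; adjusted p = 0.00662 and 0.0362). The Sohlh2 KO call did not hold with the chip as a block, which turned the difference to 0.15 (adjusted p = 0.822), nor without any single one of 6 arrays (adjusted p = 0.058 to 0.148), and the Sohlh1 KO call was also lost with the chip block.

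Rfx2 read 9.39, 8.22, 9.73 and 8.85 on the Sohlh1 KO arrays and 9.17, 8.90 and 8.76 on the Sohlh2 KO arrays, against 9.74, 9.84, 9.95 and 9.53 on the wild-type arrays. Sohlh1 KO array 3 lay within the wild-type range. In Sohlh1 KO Rfx2 was -0.72 ± 0.26 from wild type and in Sohlh2 KO -0.82 ± 0.28 (log2, SE; adjusted p = 0.0498 and 0.0477). The Sohlh1 KO call was lost in 9 of 11 fits that each left out 1 array (adjusted p = 0.0555 to 0.115), and the Sohlh2 KO call in 8 of 11 (0.0529 to 0.151). With the chip as a block the Sohlh2 KO difference was -1.30 and did not pass (adjusted p = 0.0825).

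Myb acts early in the multiplication of centrioles and is better known from blood progenitors. Myb read 4.88, 5.09, 4.74 and 5.68 on the Sohlh1 KO arrays and 5.01, 4.66 and 4.72 on the Sohlh2 KO arrays, against 5.36, 5.40, 5.25 and 5.11 on the wild-type arrays. It was barely above background in wild type, and Sohlh1 KO array 4 was the highest of all arrays. Myb differed from wild type by -0.19 ± 0.18 in Sohlh1 KO and by -0.49 ± 0.20 in Sohlh2 KO (log2, SE; adjusted p = 0.48 and 0.0936), and neither difference passed the threshold.

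Both genes of centriole multiplication fell. Ccno, a cyclin-like protein needed to make many basal bodies, read 7.28, 6.71, 6.68 and 7.22 on the Sohlh1 KO arrays and 7.42, 7.43 and 7.27 on the Sohlh2 KO arrays, against 11.98, 12.10, 12.23 and 11.86 on the wild-type arrays. Every knockout array was above background and far below every wild-type array. Ccno differed from wild type by -5.07 ± 0.16 in Sohlh1 KO and by -4.67 ± 0.17 in Sohlh2 KO (log2, SE; adjusted p = 7.83e-11 and 4.38e-10), which is 33.7-fold and 25.4-fold lower.

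Ccdc78, a protein of the deuterosome on which centrioles are multiplied, read 4.37, 4.36, 4.55 and 4.41 on the Sohlh1 KO arrays and 4.34, 4.66 and 4.42 on the Sohlh2 KO arrays, against 6.0, 6.41, 5.66 and 5.53 on the wild-type arrays. It was above background on all wild-type arrays and on 0 knockout arrays. Its level was at least 1.73-fold lower in Sohlh1 KO and at least 1.69-fold lower in Sohlh2 KO (adjusted p = 2.47e-05 and 8.79e-05), with means of 4.42 ± 0.09 in Sohlh1 KO and 4.48 ± 0.17 in Sohlh2 KO, against 5.90 ± 0.39 in wild type (SD).

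**Figure D2:**
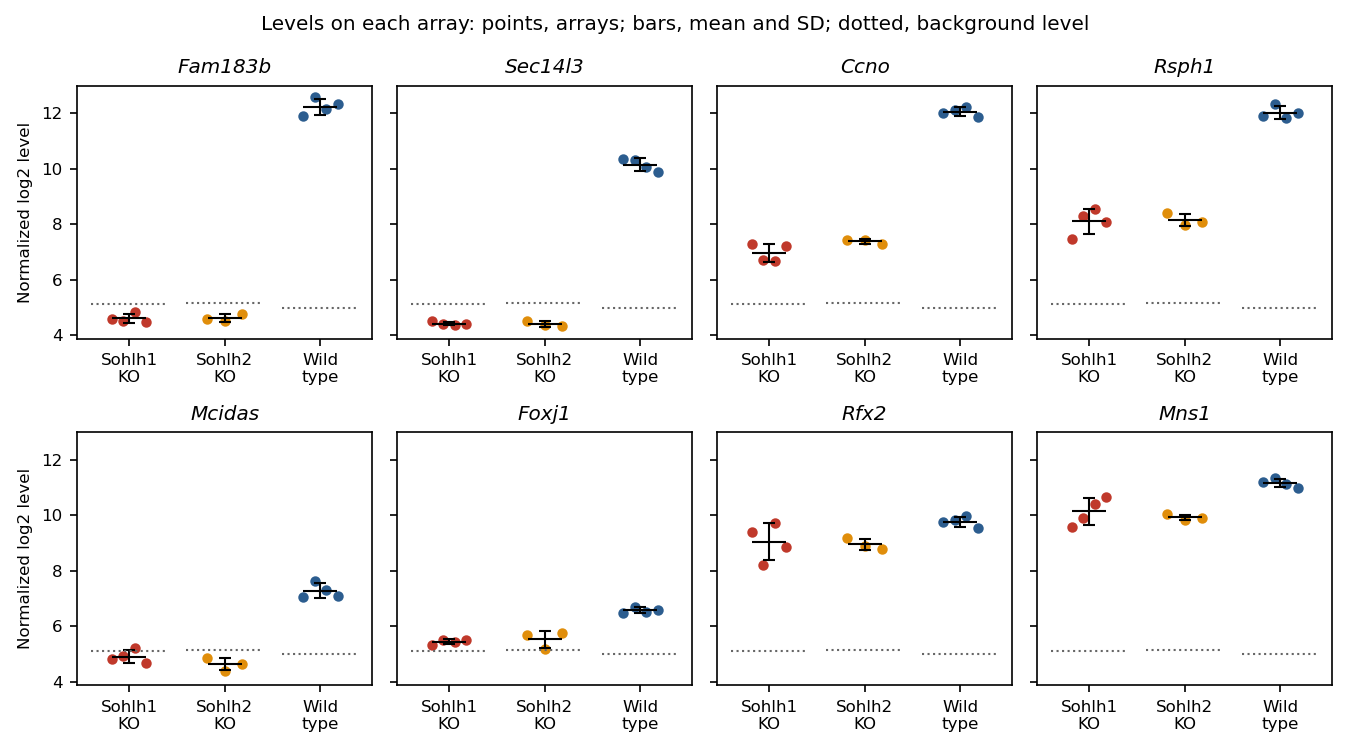
Normalized log2 level of 8 genes on each array, one point per array, with bars at the mean and 1 SD and a dotted line at the background level of each group. Fam183b and Sec14l3 lie under the background line in both knockouts, Ccno and Rsph1 stay above it, and Foxj1, Rfx2 and Mns1 differ least from wild type.

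Of the 9 dynein arm and docking genes, 4 were above background in wild type by their brightest probe, and 4 of them fell in Sohlh1 KO and 3 in Sohlh2 KO. Dnaic1, an intermediate chain of the outer arm, read 5.11, 4.95, 4.73 and 4.80 on the Sohlh1 KO arrays and 5.67, 4.61 and 5.22 on the Sohlh2 KO arrays, against 6.73, 7.05, 6.79 and 6.84 on the wild-type arrays. Against wild type, Dnaic1 changed by -1.95 ± 0.19 in Sohlh1 KO and -1.68 ± 0.21 in Sohlh2 KO (log2, SE; adjusted p = 4.11e-06 and 4.40e-05). The groups did not overlap.

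Dnah2, a heavy chain of the inner arm, read 5.35, 4.77, 5.20 and 5.13 on the Sohlh1 KO arrays and 5.30, 5.25 and 5.19 on the Sohlh2 KO arrays, against 6.16, 5.99, 6.18 and 6.06 on the wild-type arrays. Every knockout array was below every wild-type array. Sohlh1 KO minus wild type was -0.98 ± 0.13 for Dnah2 and Sohlh2 KO minus wild type -0.85 ± 0.14 (log2, SE; adjusted p = 7.24e-05 and 6.03e-04). A second, dimmer probe of Dnah2 read 4.97 in Sohlh1 KO and 4.96 in Sohlh2 KO, against 5.03 in wild type, and did not pass in either comparison.

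Dnah11, an outer arm heavy chain, read 8.60, 8.47, 8.60 and 8.83 on the Sohlh1 KO arrays and 9.22, 8.66 and 8.95 on the Sohlh2 KO arrays, against 9.06, 9.15, 9.33 and 9.23 on the wild-type arrays. Sohlh2 KO array 2 lay within the wild-type range. In Sohlh1 KO Dnah11 was -0.57 ± 0.14 from wild type and in Sohlh2 KO -0.25 ± 0.15 (log2, SE; adjusted p = 0.00704 and 0.252), so the change passed in Sohlh1 KO and not in Sohlh2 KO. The difference between the knockouts did not pass the test (-0.32 ± 0.15, adjusted p = 0.598). Without wild-type arrays 2 and 3 the Sohlh1 KO call was lost. A second, far dimmer probe of Dnah11 was above background on 2 wild-type arrays and 0 knockout arrays, and was not tested. It read 4.67 in Sohlh1 KO and 4.81 in Sohlh2 KO, against 5.03 in wild type. Armc4, which docks outer arms, was above background on 0 knockout arrays and at least 1.46-fold lower in Sohlh1 KO and 1.43-fold lower in Sohlh2 KO (adjusted p = 3.91e-04 and 0.00103). Its means were 4.61 ± 0.07 in Sohlh1 KO and 4.62 ± 0.20 in Sohlh2 KO, against 5.65 ± 0.37 in wild type (SD), and with the chip as a block its fitted Sohlh2 KO difference was nearly the same size but did not pass (-1.03, adjusted p = 0.0514).

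Both factors that assemble dynein arms in the cytoplasm fell in both knockouts. Zmynd10 read 5.10, 4.62, 5.03 and 4.81 on the Sohlh1 KO arrays and 4.89, 4.56 and 4.62 on the Sohlh2 KO arrays, against 8.05, 8.69, 8.21 and 8.08 on the wild-type arrays. On 1 of the 7 knockout arrays it passed the background level. Zmynd10 fell by 3.37 ± 0.16 in Sohlh1 KO (log2, SE; adjusted p = 5.10e-09) and was at least 8.67-fold lower in Sohlh2 KO (adjusted p = 7.97e-09).

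Lrrc6, its partner in arm assembly, read 5.60, 5.89, 5.72 and 6.03 on the Sohlh1 KO arrays and 5.25, 5.65 and 5.74 on the Sohlh2 KO arrays, against 7.89, 8.05, 7.46 and 7.50 on the wild-type arrays. All 11 arrays were above background. Lrrc6 differed from wild type by -1.91 ± 0.17 in Sohlh1 KO and by -2.17 ± 0.18 in Sohlh2 KO (log2, SE; adjusted p = 1.56e-06 and 1.28e-06).

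All 3 radial spoke genes above background fell in both knockouts. Rsph1, a protein of the spoke head, read 7.48, 8.28, 8.55 and 8.09 on the Sohlh1 KO arrays and 8.40, 7.97 and 8.07 on the Sohlh2 KO arrays, against 11.91, 12.34, 11.80 and 11.98 on the wild-type arrays. Against wild type, Rsph1 changed by -3.91 ± 0.21 in Sohlh1 KO and -3.86 ± 0.23 in Sohlh2 KO (log2, SE; adjusted p = 1.16e-08 and 3.58e-08), which is 15-fold and 14.5-fold lower. Rsph1 stayed well above background on all knockout arrays.

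Rsph4a, also of the spoke head, read 5.72, 6.28, 6.74 and 6.16 on the Sohlh1 KO arrays and 6.39, 6.19 and 5.73 on the Sohlh2 KO arrays, against 10.43, 10.70, 9.97 and 9.97 on the wild-type arrays. Sohlh1 KO minus wild type was -4.04 ± 0.23 for Rsph4a and Sohlh2 KO minus wild type -4.17 ± 0.25 (log2, SE; adjusted p = 2.62e-08 and 4.99e-08). The groups lay far apart.

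Rsph9, the third spoke head gene, read 7.66, 8.47, 8.76 and 8.34 on the Sohlh1 KO arrays and 8.68, 8.21 and 8.35 on the Sohlh2 KO arrays, against 10.10, 10.62, 10.17 and 10.19 on the wild-type arrays. In Sohlh1 KO Rsph9 was -1.96 ± 0.21 from wild type and in Sohlh2 KO -1.85 ± 0.23 (log2, SE; adjusted p = 1.16e-05 and 5.11e-05). All knockout arrays lay below all wild-type arrays.

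In the central apparatus, Spag16 and Hydin were above background in wild type, and both fell in both knockouts. Spag16 read 5.70, 5.24, 5.32 and 4.90 on the Sohlh1 KO arrays and 4.55, 4.78 and 4.95 on the Sohlh2 KO arrays, against 8.03, 8.33, 7.72 and 7.81 on the wild-type arrays. It fell by 2.68 ± 0.18 in Sohlh1 KO (log2, SE; adjusted p = 1.30e-07), and was above background on 0 Sohlh2 KO arrays, at least 7.11-fold lower (adjusted p = 5.94e-08). Of its 4 dimmer tested probes, 3 also passed as lower in Sohlh1 KO and all 4 in Sohlh2 KO.

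Hydin, a large protein of a central pair projection, read 5.19, 5.50, 4.94 and 5.76 on the Sohlh1 KO arrays and 4.82, 5.44 and 5.29 on the Sohlh2 KO arrays, against 6.03, 5.91, 5.81 and 5.78 on the wild-type arrays. Hydin differed from wild type by -0.54 ± 0.18 in Sohlh1 KO and by -0.70 ± 0.20 in Sohlh2 KO (log2, SE; adjusted p = 0.0377 and 0.0197). The Sohlh1 KO call was lost in 6 of 11 fits that each left out 1 array (adjusted p = 0.0554 to 0.109) and the Sohlh2 KO call in 2 of 11 (0.0516 to 0.105). Both were lost without background correction, and with the chip as a block (-0.54 and -0.70, adjusted p = 0.107 and 0.21).

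Ccdc39 and Ccdc40 form the ruler that spaces the arms and spokes along the doublet, and Drc1 and Ccdc65 belong to the nexin-dynein regulatory complex. Ccdc65 read 6.90, 7.30, 7.06 and 7.12 on the Sohlh1 KO arrays and 7.22, 6.99 and 7.24 on the Sohlh2 KO arrays, against 8.22, 8.91, 8.63 and 8.40 on the wild-type arrays. Against wild type, Ccdc65 changed by -1.45 ± 0.15 in Sohlh1 KO and -1.39 ± 0.17 in Sohlh2 KO (log2, SE; adjusted p = 1.01e-05 and 3.77e-05). The groups did not overlap.

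Drc1 read 5.83, 4.88, 5.54 and 5.45 on the Sohlh1 KO arrays and 5.75, 5.47 and 6.09 on the Sohlh2 KO arrays, against 8.44, 8.90, 8.21 and 8.34 on the wild-type arrays. Sohlh1 KO minus wild type was -3.05 ± 0.21 for Drc1 and Sohlh2 KO minus wild type -2.70 ± 0.23 (log2, SE; adjusted p = 1.75e-07 and 1.55e-06). It was close to background in both knockouts.

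Ccdc39 read 5.18, 4.84, 4.42 and 4.67 on the Sohlh1 KO arrays and 4.56, 4.74 and 4.50 on the Sohlh2 KO arrays, against 7.29, 7.32, 7.39 and 7.04 on the wild-type arrays. It was above background on 1 of the 7 knockout arrays. Ccdc39 fell by 2.48 ± 0.16 in Sohlh1 KO (log2, SE; adjusted p = 6.51e-08) and was at least 4.34-fold lower in Sohlh2 KO (adjusted p = 8.78e-08). Ccdc40 differed from wild type by -0.60 ± 0.19 in Sohlh1 KO and by -0.26 ± 0.21 in Sohlh2 KO (log2, SE; adjusted p = 0.0302 and 0.404). Only the first passed, and it was lost in 4 of 11 fits that each left out 1 array (adjusted p = 0.0546 to 0.0988), with the chip as a block and within the shared chip.

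Among the tektins and the proteins in or on the doublet microtubules, all 7 genes above background fell in both knockouts, with medians of -4.68 in Sohlh1 KO and -4.58 in Sohlh2 KO. Fam183b, a protein inside the doublet that is also called Cfap144, read 4.59, 4.51, 4.85 and 4.47 on the Sohlh1 KO arrays and 4.57, 4.50 and 4.76 on the Sohlh2 KO arrays, against 11.89, 12.56, 12.15 and 12.31 on the wild-type arrays. None of the 7 knockout arrays was above background, and its wild-type arrays lay far above background. Fam183b was at least 139-fold lower in Sohlh1 KO and at least 136-fold lower in Sohlh2 KO (adjusted p = 6.15e-12 and 1.65e-11), with means of 4.61 ± 0.17 in Sohlh1 KO and 4.61 ± 0.14 in Sohlh2 KO, against 12.23 ± 0.28 in wild type (SD).

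1110017D15Rik, also called Cfap95, read 6.92, 7.05, 7.24 and 7.25 on the Sohlh1 KO arrays and 6.97, 6.80 and 7.0 on the Sohlh2 KO arrays, against 11.80, 12.27, 11.73 and 11.66 on the wild-type arrays. In Sohlh1 KO 1110017D15Rik was -4.75 ± 0.15 from wild type and in Sohlh2 KO -4.94 ± 0.16 (log2, SE; adjusted p = 8.09e-11 and 1.73e-10), which is 27-fold and 30.7-fold lower. It stayed above background on every knockout array.

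Mns1, which keeps the doublet structure intact in cilia and sperm tails, read 9.56, 9.90, 10.40 and 10.65 on the Sohlh1 KO arrays and 10.02, 9.82 and 9.90 on the Sohlh2 KO arrays, against 11.20, 11.35, 11.10 and 10.98 on the wild-type arrays. Mns1 differed from wild type by -1.03 ± 0.20 in Sohlh1 KO and by -1.24 ± 0.22 in Sohlh2 KO (log2, SE; adjusted p = 0.00161 and 9.12e-04). Its difference was the smallest of the 7 genes in this role in both knockouts, and it stayed well above background.

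The other 4 genes of this role had per-array levels between 4.38 and 7.41 in the knockouts, against 9.75 and 11.26 in wild type. Fam166c was above background on 0 knockout arrays, at least 35.5-fold lower in Sohlh1 KO and at least 34.7-fold lower in Sohlh2 KO (adjusted p = 1.61e-11 and 6.49e-11). Its means were 4.42 ± 0.05 in Sohlh1 KO and 4.55 ± 0.15 in Sohlh2 KO, against 10.26 ± 0.31 in wild type (SD). Tekt1, a tektin filament protein, differed by -3.80 and -4.26, Pifo by -4.68 and -4.58, and Enkur by -2.96 and -3.0 (log2, Sohlh1 KO and Sohlh2 KO, each minus wild type). The largest of these adjusted p-values was 4.64e-08.

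Of the 6 other ciliated cell genes above background, 5 fell in both knockouts. Sec14l3, a lipid-binding protein of ciliated epithelia, read 4.50, 4.41, 4.36 and 4.38 on the Sohlh1 KO arrays and 4.52, 4.36 and 4.32 on the Sohlh2 KO arrays, against 10.35, 10.32, 10.04 and 9.87 on the wild-type arrays. It was above background on 0 knockout arrays, at least 32.8-fold lower in Sohlh1 KO and at least 32.1-fold lower in Sohlh2 KO (adjusted p = 1.20e-11 and 3.49e-11). Its means were 4.41 ± 0.06 in Sohlh1 KO and 4.40 ± 0.11 in Sohlh2 KO, against 10.14 ± 0.23 in wild type (SD).

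Tppp3, a tubulin-binding protein used as a marker of ciliated cells, read 7.60, 6.94, 7.86 and 7.51 on the Sohlh1 KO arrays and 7.38, 7.59 and 7.52 on the Sohlh2 KO arrays, against 9.57, 10.23, 10.12 and 9.76 on the wild-type arrays. Against wild type, Tppp3 changed by -2.44 ± 0.20 in Sohlh1 KO and -2.42 ± 0.21 in Sohlh2 KO (log2, SE; adjusted p = 6.42e-07 and 1.92e-06). It remained above background on every knockout array.

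Cdhr3, a cadherin known from airway ciliated cells, read 4.58, 4.73, 4.82 and 4.84 on the Sohlh1 KO arrays and 4.55, 4.63 and 4.65 on the Sohlh2 KO arrays, against 9.39, 9.93, 8.96 and 9.38 on the wild-type arrays. With 0 knockout arrays above background, Cdhr3 was at least 19.8-fold lower in Sohlh1 KO and at least 19.3-fold lower in Sohlh2 KO (adjusted p = 3.09e-10 and 7.12e-10). Its means were 4.74 ± 0.12 in Sohlh1 KO and 4.61 ± 0.05 in Sohlh2 KO, against 9.41 ± 0.40 in wild type (SD).

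Sntn, a protein of the ciliary tip, was above background on 0 knockout arrays as well, at least 17-fold and at least 16.7-fold lower (adjusted p = 2.78e-10 and 7.12e-10). Its means were 4.55 ± 0.15 in Sohlh1 KO and 4.50 ± 0.10 in Sohlh2 KO, against 9.20 ± 0.37 in wild type (SD). Ccdc113 differed from wild type by -3.58 ± 0.28 in Sohlh1 KO and by -4.0 ± 0.31 in Sohlh2 KO (log2, SE; adjusted p = 5.76e-07 and 5.45e-07). Ak7, an adenylate kinase of cilia, differed from wild type by -0.48 ± 0.24 in Sohlh1 KO and by -0.17 ± 0.26 in Sohlh2 KO (log2, SE; adjusted p = 0.149 and 0.668), and neither difference passed.

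The knockouts were compared with each other directly. Of the 35 genes, 0 differed between Sohlh1 KO and Sohlh2 KO at an adjusted p under 0.05 (limma), where 0.00749% of all tested genes were lower and 0.03% higher in Sohlh1 KO. At an unadjusted p under 0.05, 2 of the 35 genes and 1136 of the 13355 tested genes (8.51%) differed. The median difference, Sohlh1 KO minus Sohlh2 KO, was -0.01. The 95% confidence intervals of the 35 differences together ran between -0.88 and 1.08, and 33 of them lay wholly within 1 log2 unit of 0. The gene with the smallest unadjusted p was Spag16, with 0.53 ± 0.20 (log2, SE; adjusted p = 0.438), where no Sohlh2 KO array was above background. Within the chip that holds both knockouts, 0 of the 35 differed and the median was 0.05. A threshold that was not passed does not show equal levels.

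Some signal of these genes remained in the knockouts. Of the 35 genes, 16 were above background on every Sohlh1 KO array and 19 on every Sohlh2 KO array, while 7 and 12 were so on none. The summed corrected intensity of the 35 genes was 3903 to 5260 on Sohlh1 KO arrays and 3949 to 4769 on Sohlh2 KO arrays, against 31810 to 42881 on wild-type arrays. The ranges of knockout and wild-type arrays lay far apart.

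The 35 genes also varied together among the wild-type arrays. Array 2 was the highest of the 4 for 27 of the 35 genes, with a median of 0.33 above the wild-type mean, and array 4 was the lowest for 14 and the highest for 0. Over all tested genes above background in wild type, array 2 was the highest for 20.6%, and array 4 the lowest for 21.5% and the highest for 22.5%. On the knockout arrays the median shift ran from -2.59 to -2.12 in Sohlh1 KO and from -2.54 to -2.39 in Sohlh2 KO. The median SD of the 35 genes between arrays was 0.31 in Sohlh1 KO, 0.20 in Sohlh2 KO and 0.28 in wild type, against 0.27, 0.15 and 0.17 over all tested genes.

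**Figure D3:**
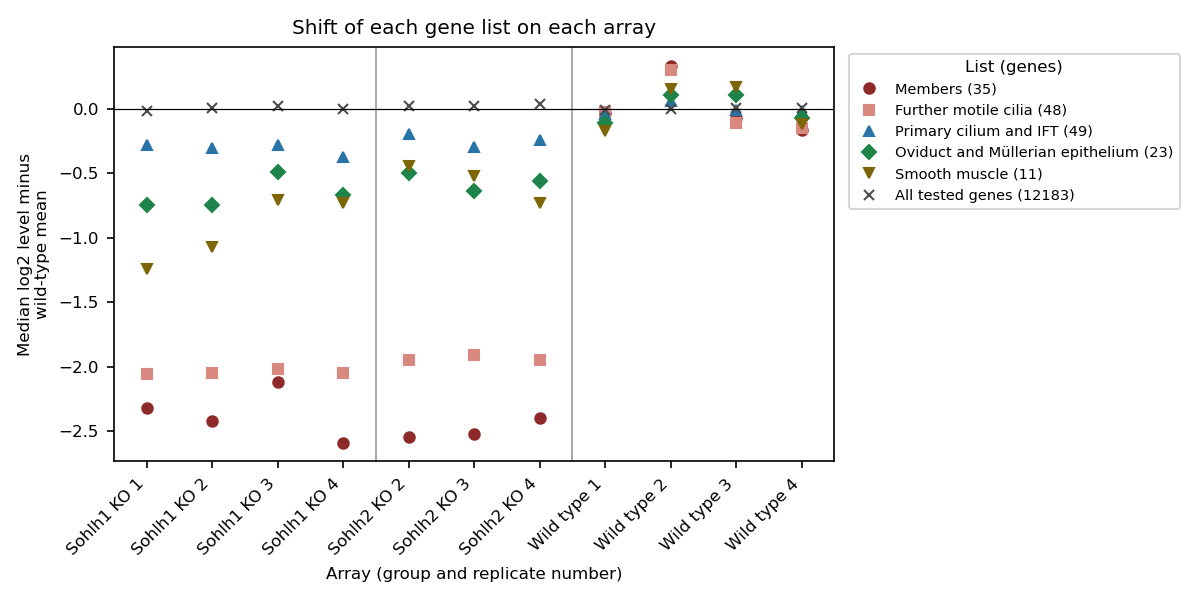
Median log2 level minus wild-type mean on each array, for the 35 genes, 4 other gene lists and all tested genes above background in wild type. Both motile cilia lists lie between -2.59 and -1.91 on knockout arrays and are raised together on wild-type array 2, while all genes stay near 0.

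A second list of motile cilia genes, none of them a member, held 89 genes, of which 68 had a probe and 49 were tested. In Sohlh1 KO 40 of the 49 were lower and 0 higher, with a median of -2.01, and in Sohlh2 KO 42 were lower and 0 higher, with a median of -1.92. Of all tested genes, 16.4% were lower in Sohlh1 KO and 13% in Sohlh2 KO. Without the filter 42 and 45 of 68 were lower and 0 higher, with medians of -0.90 and -1.04. Of all genes on the array, 11.4% and 8.91% were then lower. Cfap206, an axoneme protein of the spoke base, was above background on 0 knockout arrays and at least 14.5-fold and at least 14.2-fold lower (adjusted p = 3.87e-11 and 1.14e-10; means 4.42 ± 0.05 in Sohlh1 KO and 4.45 ± 0.13 in Sohlh2 KO, against 8.96 ± 0.23 in wild type, SD). Dynlrb2, a dynein light chain, differed from wild type by -4.85 ± 0.15 in Sohlh1 KO and by -5.26 ± 0.16 in Sohlh2 KO (log2, SE; adjusted p = 7.83e-11 and 1.04e-10). Dnali1, an inner arm light intermediate chain, differed by -5.05 and -5.14, and Daw1, which serves dynein arm transport, by -3.04 and -2.83. On wild-type array 2 these genes were also high, the highest of 4 arrays for 36 of 48 genes.

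Genes of the primary cilium and of intraflagellar transport, which most cell types use, had medians closer to 0. Of 60 listed, 50 were tested. In Sohlh1 KO 21 were lower and 2 higher, with a median of -0.31, and in Sohlh2 KO 13 were lower and 0 higher, with a median of -0.21. Over all tested genes 16.4% were lower and 16.3% higher in Sohlh1 KO, with a median of 0.03. The shares in Sohlh2 KO were 13% and 12.5%, with a median of 0.04. The list thus also leaned lower in both knockouts. Nphp4, of the ciliary transition zone, differed from wild type by -1.70 ± 0.16 in Sohlh1 KO and by -1.30 ± 0.17 in Sohlh2 KO (log2, SE; adjusted p = 3.09e-06 and 9.24e-05). Tctn3, Bbs4 and Ift43, of the transition zone, the BBSome and intraflagellar transport, differed in Sohlh1 KO by -0.96, -1.03 and -0.86, and in Sohlh2 KO by -0.74, -1.0 and -0.71.

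Some markers of neighbouring tissue that can be dissected with a newborn ovary were also lower in the knockouts. Of 28 genes of oviduct and Müllerian duct epithelium, 23 were tested, and 13 were lower and 0 higher in Sohlh1 KO (median -0.61), against wild type, and 8 lower and 1 higher in Sohlh2 KO (median -0.57). The shares of all tested genes were 16.4% lower and 16.3% higher in Sohlh1 KO, and 13% and 12.5% in Sohlh2 KO. The same shares apply to the lists below. Differences above 0 were seen for 3 of the 23 genes in Sohlh1 KO and 4 in Sohlh2 KO. Ovgp1, the oviductal glycoprotein, differed from wild type by -4.13 ± 0.15 in Sohlh1 KO and by -3.38 ± 0.16 in Sohlh2 KO (log2, SE; adjusted p = 2.95e-10 and 5.60e-09). Its means were 9.14 ± 0.14 in Sohlh1 KO and 9.89 ± 0.12 in Sohlh2 KO, against 13.27 ± 0.29 in wild type (SD), so it was high in wild type. Sox17, Cldn3 and Cdh1 differed by -1.59, -1.64 and -1.10 in Sohlh1 KO and by -1.13, -1.24 and -1.10 in Sohlh2 KO. Wild-type array 2 was the highest of its group for 6 of the 23 genes and the lowest for 1. The list's median lay 0.11 above the wild-type mean on array 2 and 0.10 above it on array 3. Array 2 was the highest for 27 of the 35 motile cilia genes, and for 20.6% of all tested genes above background in wild type. Emx2 and Epcam were above background on 0 of the 11 arrays. The summed corrected intensity of the 27 genes with a probe was 10682 to 12639 on Sohlh1 KO arrays and 10489 to 12041 on Sohlh2 KO arrays, against 23734 to 29212 in wild type. Their part in the result was not tested.

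Of 12 smooth muscle and pericyte genes, 11 were tested, and 7 were lower in Sohlh1 KO (median -0.91) and 5 in Sohlh2 KO (median -0.54), with 0 higher in either. Synm, Actg2, Myh11 and Lmod1, all of contractile smooth muscle, differed by -2.30, -3.48, -2.78 and -1.91 in Sohlh1 KO and by -2.13, -2.96, -2.30 and -1.51 in Sohlh2 KO. Cnn1 was above background on 0 arrays. Summed intensities were 15267 to 21716 on Sohlh1 KO arrays and 24235 to 27527 on Sohlh2 KO arrays, against 38900 to 40632 in wild type. Of 10 fat tissue genes, 9 were tested, and in each knockout 5 were lower and 1, Ucp1, higher. Adipoq, the adipocyte hormone adiponectin, averaged 4.93 ± 0.30 in Sohlh1 KO and 5.02 ± 0.11 in Sohlh2 KO, against 10.52 ± 0.43 in wild type (SD). Cidea was at least 7.21-fold lower in Sohlh1 KO and differed by -3.01 in Sohlh2 KO. Pparg and Plin5 differed by -2.57 and -1.58 in Sohlh1 KO and by -2.50 and -1.29 in Sohlh2 KO. Summed intensities of the fat genes were 308 to 326 on Sohlh1 KO arrays and 328 to 346 on Sohlh2 KO arrays, against 1781 to 2953 in wild type. The part of muscle or fat in the result was not tested.

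Germ cell genes moved in both directions in the same arrays. Of 16 genes of the growing oocyte, all tested, 13 were lower in Sohlh1 KO (median -4.44) and 15 in Sohlh2 KO (median -3.88), with 0 higher, and Nlrp14, Oosp1, Gdf9 and Npm2 passed with the smallest adjusted p. Summed intensities of these genes were 6950 to 9938 on Sohlh1 KO arrays and 9594 to 10221 on Sohlh2 KO arrays, against 76093 to 95275 in wild type. Of 16 meiotic genes, 13 were tested, and 12 were higher and 1 lower in Sohlh1 KO (median 2.26) and 10 higher and 1 lower in Sohlh2 KO (median 1.83), led by Tex101, Stag3, Sycp2 and Meiob. Their summed intensities were 10962 to 20256 on Sohlh1 KO arrays and 11289 to 12413 on Sohlh2 KO arrays, against 2080 to 2909 in wild type, with Sycp3, Dmc1 and Hormad1 above background on 0 arrays. Among 15 granulosa cell genes 4 were lower (Hsd17b1, Fshr, Inha and Esr2) and 5 higher (Irx3, Lgr5, Irx5, Rspo1 and Wnt4) in each knockout, with medians of 0.41 in Sohlh1 KO and 0.20 in Sohlh2 KO. Their summed intensities were 7210 to 9365 on Sohlh1 KO arrays and 7839 to 8718 on Sohlh2 KO arrays, against 13183 to 16021 in wild type. Of 9 red blood cell genes 5 were tested, and 1 was lower and 4 higher in Sohlh1 KO and 1 lower and 2 higher in Sohlh2 KO, with Alas2, Hba-a1, Slc4a1 and Klf1 higher in Sohlh1 KO. Summed intensities were 27085 to 41659 on Sohlh1 KO arrays and 24093 to 33607 on Sohlh2 KO arrays, against 6477 to 11058 in wild type. A list of 9 markers of lung epithelium and of the brain ventricles, tissues in which ciliated cells are also known, had 3 tested genes. Of these, Sftpc and Aqp4 were lower in both knockouts and Scgb1a1 passed in neither. Without the filter 2 of the list's 8 genes with a probe were lower in each knockout and 0 higher. The medians were then -0.15 in Sohlh1 KO and -0.23 in Sohlh2 KO. In wild type Sftpc averaged 6.53 and Aqp4 7.59, while Sftpb and Bpifa1 were above background on 0 arrays. The summed intensity of its 8 genes with a probe was 203 to 243 on Sohlh1 KO arrays and 225 to 267 on Sohlh2 KO arrays, against 367 to 639 in wild type. The part of these cells in the result was not tested.

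**Figure D4:**
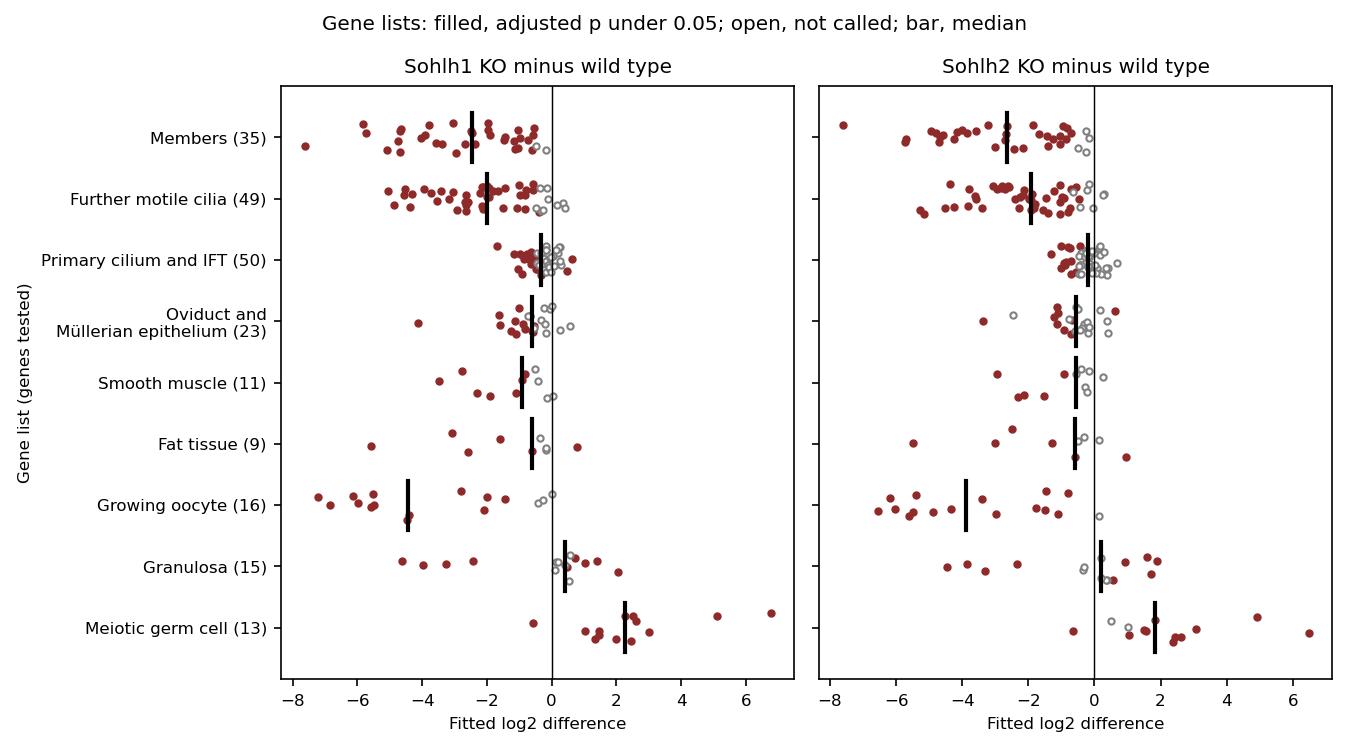
Fitted log2 differences of the tested genes of each list in Sohlh1 KO (left) and Sohlh2 KO (right), each minus wild type, with filled points at an adjusted p under 0.05 and a bar at the median. Members and further motile cilia genes lie far left of 0, primary cilium genes nearer to 0 but mostly left of it, growing oocyte genes far left and most meiotic genes right.

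Of the 44 genes, 9 had a brightest probe that was not above background in wild type. Dnah6, Dnah9, Ttc25, Spag6, Spag17, Spef2 and Stk33 passed the background level on 0 of 4 wild-type arrays, and Dnah5 and Dnaic2 on 2. In the fit without a filter Dnah5 and Dnaic2 were lower in Sohlh1 KO (adjusted p = 0.0247 and 0.0443), and in Sohlh2 KO Dnah5 was lower (adjusted p = 0.0149) while Dnaic2 did not pass (adjusted p = 0.122). A dimmer probe of Dnah5 was above background on 3 of 4 wild-type arrays and on 0 knockout arrays, with means of 4.64 in Sohlh1 KO and 4.62 in Sohlh2 KO, against 5.08 in wild type. It passed in neither comparison (adjusted p = 0.111 and 0.138). Just inside the rule, Myb had a wild-type mean of 5.28 and Armc4 of 5.65. Just outside it, Dnah5 had 5.32 and Dnaic2 4.95, against a mean background level of 4.98 on the wild-type arrays. Of the 35 genes, 13 had several tested probes. The calls of these probes disagreed for Dnah2 and Spag16 in Sohlh1 KO and for Dnah2 in Sohlh2 KO.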

How the data were processed

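Each array gave one intensity per bead probe, per the labels, from total RNA amplified to biotin-labelled cRNA and read with BeadStudio 3.2, per the submitters' processing notes. The deposited intensity values of the 11 arrays share one distribution to within 11.16 units, so the deposited table was already normalized between arrays. The deposited series matrix holds log2 values of the same intensities, to within 0.005, and was used as an alternative. No detection p-values or negative control probes were used, so 1287 olfactory receptor probes served as negative controls for normexp background correction (offset 16), followed by quantile normalization and log2. Probes were named from the platform annotation: 34885 of 45281 had 1 symbol, 18 several and 10378 none.

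Background was the 95th percentile of those probes on each array, and probes brighter than this on at least 3 arrays were kept, which left 24462 probes and, by the brightest probe per gene, 13355 genes. Background in wild type was judged on at least 3 of 4 arrays. The means of the 3 groups were fitted to all arrays with limma 3.58.1 (R 4.3.3, eBayes, 8 residual degrees of freedom), with Benjamini-Hochberg adjustment over all tested genes and a threshold of 0.05. On simulated data for 13355 genes the test recovered 83% of changes of 1 log2 unit and 97% of changes of 2 for Sohlh1 KO (against wild type). It recovered 74% and 98% for Sohlh2 KO (against wild type), and 76% and 98% between the knockouts. Beside 100 changed genes, the numbers of false calls were 6, 11 and 15 in these 3 comparisons. A bound sets the wild-type mean against the lowest measurable level where a knockout probe was above background on no array. The number of arrays limits the precision.

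The cilia genes and the 10 other lists were chosen with earlier results of these data known. Arrays are shown for the regulators, Ccno and up to 3 genes per role with the highest wild-type mean, and of each other list up to 4 genes with the smallest adjusted p in the Sohlh1 KO comparison. Genes outside this rule were named after their values were seen. The alternatives were other background corrections, normalizations, filters and probe rules, the chip and the replicate number as blocks, array weights, and fits that left out arrays.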

Additional observations from a re-analysis of the deposited data

Results flagged for a closer look

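Among 52 sets of 4 arrays, taken from the wild-type and Sohlh1 KO groups for 26 genes, 1 array stood apart from the others of its group. Chance marks about 1 in 20 such sets. Rfx3, a factor that binds the X-box of cilia genes, read 6.51 on wild-type array 1, and the nearest of the other wild-type arrays read 6.30, a gap of 0.859 of the whole range. Without that array the Rfx3 difference of Sohlh2 KO from wild type was -0.90, against -0.96 with it, and no longer passed the threshold (limma, adjusted p = 0.0815), and the same call was lost without any one of the other wild-type arrays (adjusted p = 0.058 to 0.0677). No cause was tested.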

How the results depend on the processing

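Of 1505 values recomputed for 64 differences of single genes, 1437 kept their direction and their side of the threshold, 67 kept the direction and lost the call, and 1 reversed. The reversal was Rfx3 in Sohlh2 KO, 0.15 with the chip as a block. The 6 genes that lost a call under some setting were Armc4, Ccdc40, Dnah11, Hydin, Rfx2 and Rfx3. The count of genes called moved by less than 1.5 times under every alternative run, and 0 were higher in either knockout under any.

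The median difference of the 35 genes moved with the background correction. In Sohlh1 KO it was -1.22 without correction, -1.22 on the series matrix values and -1.85 with an offset of 50, and in Sohlh2 KO -1.38, -1.38 and -1.76. These settings add intensity to dim probes by construction. Over every kept probe it was -1.99 in both, and without wild-type arrays 2 and 3 it was -2.19 in Sohlh1 KO and -2.44 in Sohlh2 KO. The cause was not tested. Leaving out 1 array at a time gave 30 to 33 genes called and medians of -2.50 to -2.34 in Sohlh1 KO, 28 to 31 and -2.70 to -2.52 in Sohlh2 KO, and 0 and -0.05 to 0.08 between the knockouts.

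Same-numbered arrays showed little shared deviation (correlations of -0.20 to 0.13). Weak correlations over so few arrays cannot exclude that the numbers pair the samples. With the replicate number as a block, 31 genes were called in Sohlh1 KO, 30 in Sohlh2 KO and 0 between the knockouts, with Rfx2 not called in either knockout (adjusted p = 0.0535 and 0.0777) and Hydin not in Sohlh1 KO (0.0636).

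Over all tested genes, 4367 were called in Sohlh1 KO, against 2540 without wild-type arrays 2 and 3. In Sohlh2 KO 3403 were called, against 1712 with the chip as a block, 1868 without wild-type arrays 2 and 3 and 5226 with array weights. Between the knockouts 5 were called, against 69 without Sohlh1 KO array 1 and 1 to 8 without any other single array, 45 with array weights, 26 with the chip as a block, 21 within the shared chip, 13 over every kept probe, 8 with cyclic loess, 2 without wild-type arrays 2 and 3, and 1 without background correction, on the series matrix values or with only the groups compared. For 12 of the 35 genes the Sohlh2 KO probes, and for 7 the Sohlh1 KO probes, give only a bound.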
